A study of Arabidopsis thaliana with 6 samples.

Results

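The transcripts of 60 Arabidopsis genes for cytosolic ribosomal proteins of the small (40S) subunit were followed through an RNA-binding experiment on ECT2, out of 26690 nuclear protein-coding genes. The 60 loci were chosen by name, as copies of 25 proteins from SA and S2 to S25, and were matched by locus identifier in every table. All 60 were found in the input tables. All 60 had a mean input of 1 FPKM or more. The reference describes most of them by the wider protein family, often under the bacterial number, so protein names here follow the eukaryotic numbering of the listed loci.

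The 40S subunit carries the messenger RNA during translation. It binds the initiation factors, scans to the start codon and reads codons at the decoding centre. In Arabidopsis almost every ribosomal protein is encoded by several nearly redundant genes, so each protein below is a small family, and mutants of single copies are known for pointed leaves and altered development. ECT2 is a reader of N6-methyladenosine (m6A), a methyl mark on adenosine in mRNA, which it binds through its YTH domain. In plants m6A lies mostly in 3' UTRs.

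In FA-CLIP, RNA crosslinked to a protein with formaldehyde is trimmed and precipitated with that protein, and each recovered place is a site with a count of conversion events. All 6 libraries came from 14-day-old Col-0 seedlings grown under long days and crosslinked with formaldehyde, in 3 groups of 2. For FA-CLIP, plants carrying FLAG-tagged ECT2 in the T-DNA mutant ect2 (SALK_002225) were precipitated on ANTI-FLAG beads. The input group held unprecipitated RNA of plants with that same genotype, and the mock group held RNA bound to the same beads in wild-type plants without the tag. Mock and FA-CLIP plants thus differed in genotype as well as in the tagged protein, and whole seedlings mix all cell types. Nothing in the labels says that replicates came from separate plants, so their spread may be technical.

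The FA-CLIP libraries listed 901178 and 830355 conversion events, and the mock libraries 489805 and 653262. Of these, 492616 and 548372 in FA-CLIP and 30505 and 36332 in the mock lay in nuclear protein-coding genes. The read depth behind the input FPKM is unknown. ECT2 itself, AT3G13460, had 72.1 and 74.9 FPKM in the input, 86 and 78 events in FA-CLIP and no site in either mock library. The smallest p of an exact two-sided permutation test of 2 libraries against 2 is 0.333, so differences below are described by whether the libraries overlap, and no test of a difference was run.

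The places where the 10 most recovered members gave the most events are shown first, because they let the letters under ECT2 be read. Each line is 30 nt of mRNA, 5′ to 3′, around the midpoint of the gene's strongest reproducible site, with capitals marking any match to the m6A consensus DRACH (A, G or U, then A or G, then A, then C, then A, C or U), to URUAY (U, A or G, U, A, then C or U) or to UGUAA. All 10 windows lay in 3' UTRs. Letters and positions are from the RefSeq TAIR10.1 assembly.
AT5G41520 (S10, chr5:16609289-16609318, minus strand): agaacgaaugugucuuuugGAACUuuguuu
AT1G15930 (S12, chr1:5472895-5472924, plus strand): cuuccaaggccaaauuugcuugagauuuau
AT5G15200 (S9, chr5:4935013-4935042, minus strand): aggauuguuuuaugguuucuuucuuuuacu
AT3G11940 (S5, chr3:3778059-3778088, minus strand): auguuugcucuuuuguuuuaugaaguuuau
AT1G04270 (S15, chr1:1141715-1141744, minus strand): ucaacucuagcucuugcguuuucauuauca
AT1G07770 (S15a, chr1:2408317-2408346, minus strand): gAAACUaccuuucucuuucuuucgaauuuu
AT5G02960 (S23, chr5:693169-693198, minus strand): ucaaGAACUugauuuuguguuacauuuuau
AT2G41840 (S2, chr2:17459856-17459885, minus strand): uuugcuuauggaucuuaauguucuaguuuu
AT5G18380 (S16, chr5:6090114-6090143, minus strand): uguuggauuauggugauucuccaagAAACU
AT5G20290 (S8, chr5:6851565-6851594, minus strand): uucuuugAAACUcccauuaugguacaaugu
In 5 of the 10 windows the capitals marked a DRACH match, and the windows of S12, S9, S5, S15 and S2 held none of the 3 motifs. The full S2 site of 61 nt held 1 DRACH match outside its window. DRACH occurred 15.6 times per kb in the whole 3' UTRs of members with a reproducible site, so matches in 30 nt are common.

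Nearly all of the 60 transcripts were recovered with tagged ECT2, and few of their RNA pieces came down without it. The members held 20600 events in 567 sites in FA-CLIP 1 and 26562 events in 596 sites in FA-CLIP 2. In the mock they held 70 events in 23 sites and 76 events in 29 sites. A reproducible site, meaning sites of both FA-CLIP libraries that overlap on the same strand, was found in 58 of the 60. Over all nuclear protein-coding genes the share was 31.5%, and in the 10% with the most input, 2669 genes of at least 22.3 FPKM to which 54 of the 60 belong, it was 86.5%. The members' count was therefore far above the share of all genes and somewhat above that of abundant transcripts. The median input was 113 FPKM in the members, 43.8 FPKM in the top 10% and 2.65 FPKM in all genes, and the part of this gap in the number of sites listed was not tested.

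Of the 60, 58 had more events, relative to all events of a library, in both FA-CLIP libraries than in both mock libraries, against 34.2% of all genes and 87.6% of the top 10%. The other two were AT5G59240, a copy of S8 with no site in any library, and AT4G30800, a copy of S11 with 7 events in FA-CLIP 2 alone. A mock site was listed for 21 members, against 4.11% of all genes and 27% of the top 10%, and 12 of them were listed in both mock libraries. All 23 and 29 mock sites of members overlapped a FA-CLIP site, and the most events at a single mock site were 7 and 5. Of the 375 reproducible sites of members, 45 (12%) overlapped a mock site. Neither these overlaps nor listing in both mock libraries was counted for other gene sets. Whether they are high or low for transcripts this abundant is therefore not known.

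The members took 4.18% of the nuclear protein-coding events in FA-CLIP 1 and 4.84% in FA-CLIP 2, a mean of 4.51% ± 0.468 (SD, n = 2). In the mock they took 0.229% and 0.209% (0.219% ± 0.0143, SD, n = 2). The groups did not overlap, and the ratio of means was 20.6. Leaving out AT2G01021 and AT5G45720, the 2 genes with the most mock events, the shares were 4.59% ± 0.409 and 0.369% ± 0.0139 (SD, n = 2), a ratio of 12.4. With all genes kept, genes described as 60S ribosomal proteins took 5.97% ± 1.48 of FA-CLIP and 7.78% ± 1.41 of mock events (SD, n = 2). Introns held 97.2% and 97.3% of these mock events in mock 1 and mock 2. Shares of the mock thus depend on where a few loci with heavy background lie. In the input the members took 1.17% and 0.669% of the summed FPKM. Without the same 2 genes the input shares were 1.95% and 1.87%. Weighted by mRNA length, as FPKM times kb, they were 1.46% and 1.37%. The FA-CLIP share exceeded this weighted input share by a ratio of 3.24, with 2.95 to 3.56 over the pairs of libraries. Against the higher unweighted shares the ratio is smaller.

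**Figure D1:**
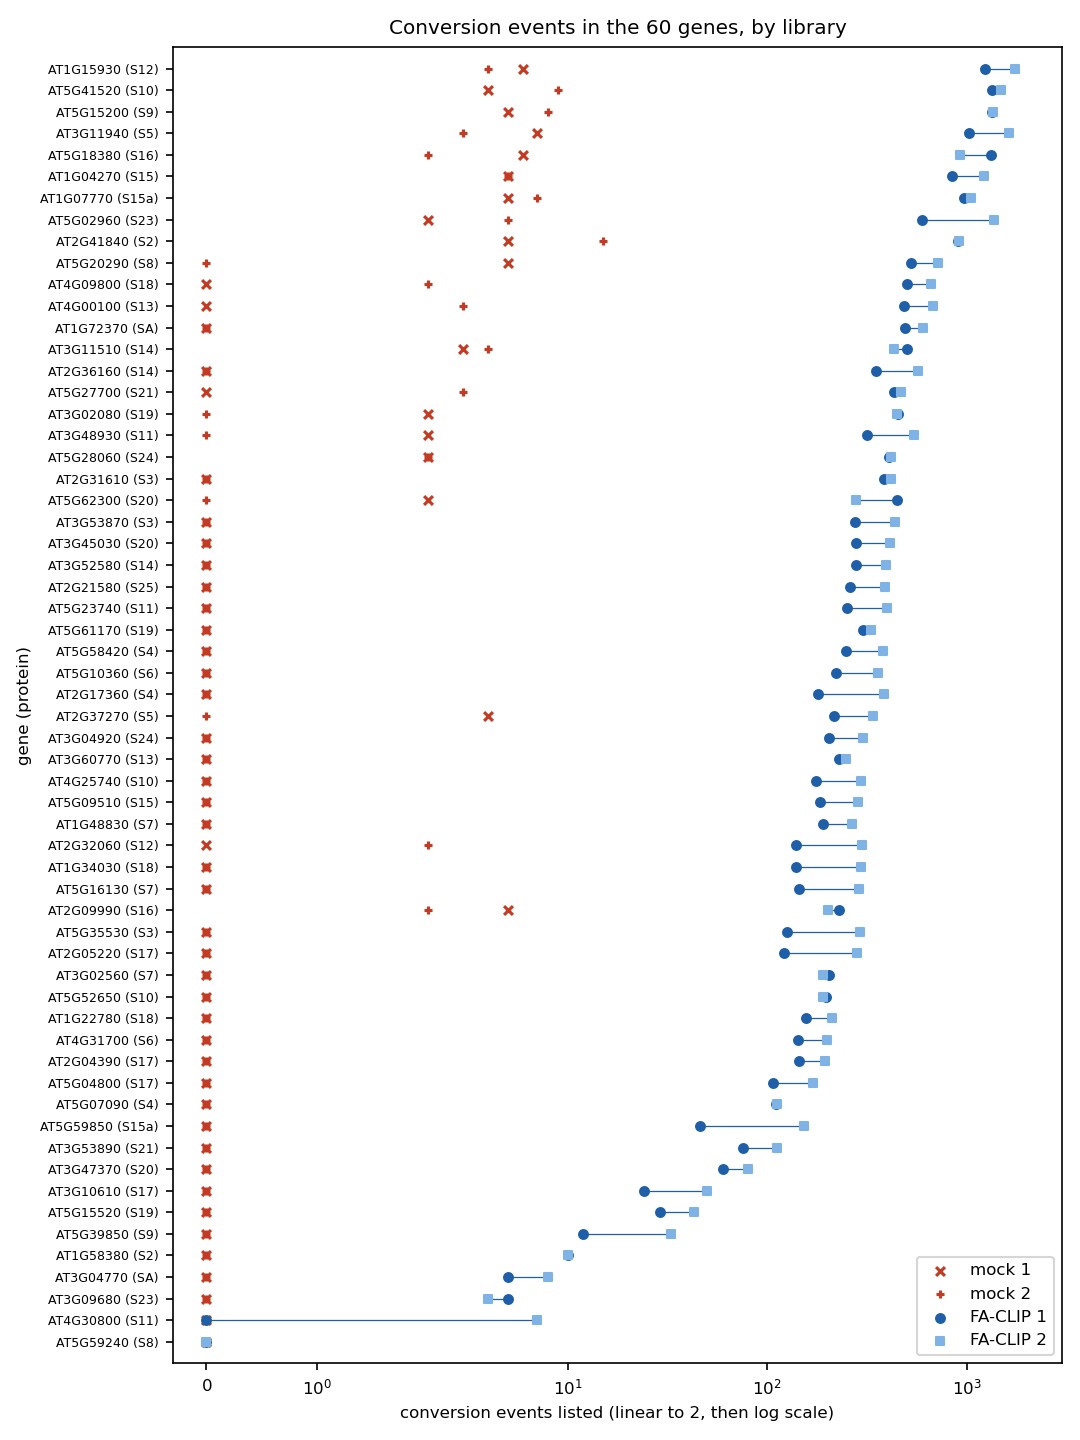
Conversion events of each of the 60 genes (rows, with the protein in brackets, ordered by mean FA-CLIP events) in the 2 FA-CLIP libraries (blue circles and squares, joined by a line) and the 2 mock libraries (red crosses), on an axis linear to 2 and logarithmic above. Every row except AT5G59240 and AT4G30800 has both FA-CLIP values to the right of both mock values; mock values reach 15 and FA-CLIP values reach 1736.

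Per unit of input weighted by mRNA length, 40S transcripts gave more events than the median abundant transcript, and so did transcripts of the large subunit. A recovery score was taken as log2 of the ratio between mean events (plus 1) in FA-CLIP and the mean input FPKM multiplied by the mRNA length in kb. Its zero has no meaning, and it serves to set genes beside each other. The 60 members had a median score of 1.25, ranging from -2.23 to 3.08. The top 10% of input had a median of -0.08 and all 16960 genes of 1 FPKM or more a median of -0.94. The members' median exceeded that of the top 10% by 1.42 when computed from the libraries numbered 1 and by 1.57 from those numbered 2, numbers that pair nothing in the labels. Of the 60, 57 were above the median of the top 10%, 39 above its upper quartile of 1.05 and 12 above its 90th percentile.

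Of the 118 genes described as 60S ribosomal proteins, 108 had a reproducible site, and the 110 with 1 FPKM or more had a median score of 1.205. Of a further 35 genes described as small-subunit ribosomal proteins, a few of them organellar, 29 had a site, and the 31 with 1 FPKM or more had a median score of 1.00. The 3 RACK1 genes, whose scaffold protein sits on the 40S head, had a median of -0.08 with a site in all 3. The 11 elongation factor genes had 0.63 with a site in all 11. The score divides by mRNA length, so at equal events and FPKM a longer mRNA scores lower. Median mRNA length was 981 nt in the members, 858.5 nt in the 60S genes and 830 nt in the further small-subunit genes. It was 1431 nt for RACK1 and 1894 nt for the elongation factors. Without mRNA length the members' median score was 1.33. That score was not computed for the other lists, so whether their order holds without length was not tested. These lists are descriptions, and no test between them was run.

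**Figure D2:**
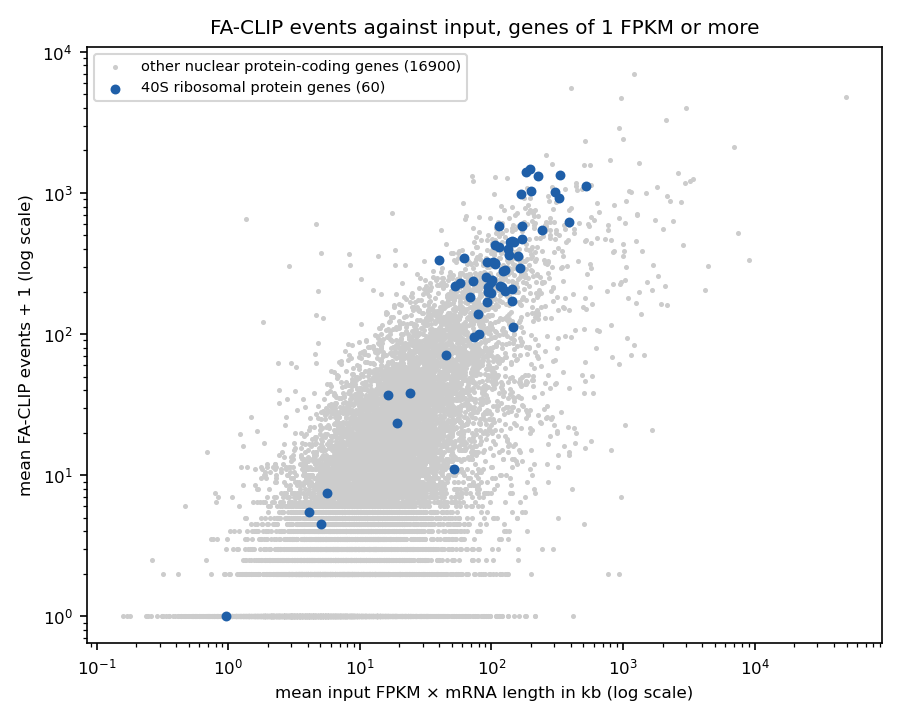
Mean FA-CLIP events plus 1 (vertical, log scale) against mean input FPKM times mRNA length in kb (horizontal, log scale) for the 16960 genes of 1 FPKM or more, with the 60 40S genes in blue and all others in grey. The blue points follow the rise of the cloud and lie mostly in its upper part at the same input, with AT1G58380 (10 events, 41.7 FPKM) below.

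Among the members, events followed input. Across the 60 genes the log2 values of events and FPKM had Pearson's r = 0.930 and Spearman's rho = 0.846, a description across genes that share libraries and kits. The 6 members under 25 FPKM, with 0 to 36 mean events, widen the range behind r, which was not computed without them. At similar input events could still differ. AT5G59850 and AT5G58420, picked after their values were seen, had 99.5 and 315 mean events at 95.1 and 94.8 FPKM. Events per gene agreed closely between FA-CLIP libraries (r = 0.968, rho = 0.936). FA-CLIP 2 gave the members a larger share: its share over that of FA-CLIP 1 had a median of 1.26 in the 58 members listed in both, against 1.06 in the 9270 genes listed in both. The mean events of the members had a median of 280.5, with 49 members above 100 and 7 above 1000. The 10 members with the most events in reproducible sites held 48.0% of all members' events there.

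Of the 10 members whose windows are printed above, 3 encode proteins of the mRNA entry channel or the decoding centre. AT2G41840, a copy of S2, which lines the mRNA entry channel, had 908 and 918 events in FA-CLIP, 5 and 15 in the mock, and 264 and 229 FPKM. AT5G15200, a copy of S9 at the same entry, had 1338 and 1348 events, 5 and 8 in the mock, and 351 and 313 FPKM. AT5G02960, a copy of S23 at the decoding centre, had 596 and 1376 events, 2 and 5 in the mock, and 240.3 and 204 FPKM. The first pair of genes gave nearly equal FA-CLIP values in both libraries, and S23 differed more between the FA-CLIP libraries than any other of the 10 most recovered members.

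Others of the 10 encode proteins of the head of the subunit; lesser copies of these proteins are given further on. AT3G11940 (RPS5A), a head protein at the mRNA exit whose gene is active in dividing cells, had 1028 and 1619 events, 7 and 3 in the mock, and 205 and 209 FPKM. AT5G41520 (RPS10B) had 1339 and 1483 events, 4 and 9 in the mock, and 193 and 173 FPKM. AT1G15930, a copy of S12 at the beak, had 1238 and 1736 events, 6 and 4 in the mock, and 199 and 209 FPKM. In all 3 the FA-CLIP values were over 100 times the mock values as listed.

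AT1G04270 (RPS15), whose protein reaches towards the decoding site, had 844 and 1225 events, 5 and 5 in the mock, and 235 and 199.7 FPKM. AT5G18380, a copy of S16, whose tail touches the transfer RNA, had 1323 and 923 events, 6 and 2 in the mock, and 515 and 444 FPKM, the highest mean input of the 60. Its score was 1.10, below the members' median. Of the body proteins, AT1G07770 (RPS15A) had 973 and 1054 events, 5 and 7 in the mock, and 197 and 168 FPKM. AT5G20290, a copy of S8, had 523 and 714 events, 5 and 0 in the mock, and 365 and 326 FPKM.

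Scores set apart a few transcripts from their abundance. The highest score, 3.08, was that of AT3G52580, a copy of the platform protein S14, with 278 and 393 events, no mock site and 45.03 and 43.6 FPKM. AT5G41520 (S10) had 2.94, AT1G15930 (S12) 2.92, AT5G02960 (S23) 2.57, AT3G11940 (S5) 2.56 and AT3G45030, a copy of the head protein S20, 2.48. AT3G45030 had 280 and 411 events, no mock site and 90.8 and 81.9 FPKM. The other two S14 copies, AT3G11510 and AT2G36160, had 4.47-fold and 3.74-fold the input of AT3G52580 and scores of 1.47 and 1.69.

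The lowest score, -2.23, was that of AT1G58380, a copy of S2, with 10 and 10 events, no mock site and 41.7 and 41.8 FPKM. Of its 25-nt stretches, 44.0% occur elsewhere in the genome, and 3 annotated genes of the same protein, AT1G58684, AT1G58983 and AT1G59359, gave 70.9 to 74.2 FPKM and 32 to 69 events each, so how reads were divided between these copies is uncertain. AT5G07090, a copy of S4, had a score of -0.37, with 111 and 112 events at 131 and 115 FPKM. AT4G31700 (RPS6), the phosphorylated target of S6 kinase in the TOR pathway, had 0.26, with 143 and 200 events at 129 and 118 FPKM. None of these 3 genes had a mock site.

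AT4G30800 (S11) had -0.18 and AT5G59240 (S8) 0.06, but at 5.01 and 1.07 mean FPKM their 3.5 and 0 mean events leave these scores to the added event. At such an input a score near the median of the top 10% would give few events, and a transcript missing from the site lists is not shown to be unbound, since the lists start at 2 events a site. AT5G39850, the lesser copy of S9, had 12 and 33 events at 18.7 and 18.4 FPKM and a score of 0.28.

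The remaining members fell between these ends. Of the S3 copies, whose protein forms the mRNA entry with S2, AT2G31610 had 385 and 415 events, AT3G53870 had 274 and 439 and AT5G35530 had 125 and 291, and none had a mock site. Of the S6 copies, AT5G10360 had 220 and 361 events at 139 FPKM in both input libraries. Both S6 genes had scores below the members' median, 0.81 for AT5G10360 and 0.26 for AT4G31700. The S18 genes, which include PFL (AT1G22780), named for its pointed first leaves, had 156 and 210 events in AT1G22780, 140 and 295 in AT1G34030 and 502 and 665 in AT4G09800 (RPS18C).

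RPS13A (AT4G00100), whose mutant also has pointed leaves, had 486 and 676 events, 0 and 3 in the mock, and AT3G60770, the second S13 gene, had 230 and 249 with no mock site. In S24, AT5G28060 had 406 and 416 events, 2 and 2 in the mock, and AT3G04920 had 203 and 301. In S21, AT5G27700 had 433 and 470 events at 241 and 199 FPKM and AT3G53890 had 76 and 112 at 115 and 106 FPKM. The 4 S17 copies had 24 to 282 events per FA-CLIP library and no mock site. In all of these genes both FA-CLIP values lay above both mock values.

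The members with the most mock events were AT2G41840, AT5G15200, AT5G41520, AT1G07770, AT3G11940, AT1G15930, AT1G04270 and AT5G18380, followed by AT5G02960, AT3G11510 and AT2G09990, which tied at a mean of 3.5. Of these 11 genes, 9 are also among the 10 with the most FA-CLIP events in reproducible sites. AT3G11510 (S14) had 3 and 4 mock events beside 503 and 432 in FA-CLIP. AT2G09990 (S16) had 5 and 2 beside 228 and 202. Mock events were not subtracted from FA-CLIP events.

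Copies of one protein differed in recovery, and their order by events mostly went with their order by input. For the 24 proteins with 2 or more copies listed, copies were ranked by mean events of the 2 FA-CLIP libraries. In 23 of them the first copy was above the last in both libraries, an order largely set by ranking on these same values. The exception was S7, with 229 and 196.5 mean events. The copy with the most events had the most input in 21 of the 24, and the copy with the fewest had the least input in 19. In all of the 24 except S14 (1.47 against 3.08), the copy with the most events also had the higher score of these extremes. Events there differed by a larger ratio than input weighted by length, an excess partly set by ranking on events. The 8 proteins with the widest range were S8, S23, S11, S2, SA, S9, S19 and S15a.

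In S23, AT5G02960 had a mean of 986 events at 222 FPKM and AT3G09680 had 5 and 4 events at 6.53 and 5.94 FPKM. In SA, the laminin-receptor-like protein of the solvent side, AT1G72370 had 489 and 606 events at 194 and 183 FPKM and AT3G04770 had 5 and 8 at 4.57 and 4.71 FPKM. Neither SA gene had a mock site. In S19, a head protein needed for subunit maturation, AT3G02080 had 452 and 449 events at 164 and 141 FPKM and AT5G15520 had 29 and 43 at 13.8 and 12.2 FPKM. In S11, AT3G48930 had 316 and 544 events at 137 and 123 FPKM beside the 0 and 7 events of AT4G30800. The weak copies of these 4 proteins thus came with input below 14 FPKM in both input libraries.

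In S15a both copies were abundant. AT5G59850 had 46 and 153 events at 101.9 and 88.3 FPKM, no mock site and a score of 0.32, against 1.75 for AT1G07770. The mean events differed by 10.2-fold and the mean input by 1.92-fold. The same was seen, less widely, in S10, where AT5G41520 had 1411 mean events at 183 FPKM and AT5G52650 had 194 at 99.4 FPKM, and in S12, where AT1G15930 had 1487 at 204 FPKM and AT2G32060 had 219.5 at 115 FPKM. In each of these 3 pairs the FA-CLIP values of the copies did not overlap, but the pairs were picked from these same values.

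In the 3 pairs printed here, the strongest sites of the copies lay in the 3' UTRs at different letters. The more recovered copy comes first, with capitals as above.
AT1G72370 (SA, chr1:27243014-27243043, minus strand): uuucucuuaAGACCcuuagauguuuugcac
AT3G04770 (SA, chr3:1309433-1309462, minus strand): ccauauuagcuugcuuuacuucuugucucu
AT3G02080 (S19, chr3:363983-364012, minus strand): uuaucuuuuuggcgauggcuuuGGACAuug
AT5G15520 (S19, chr5:5037115-5037144, minus strand): cuguucauuuugacGAACUaauuugauauu
AT1G07770 (S15a, chr1:2408317-2408346, minus strand): gAAACUaccuuucucuuucuuucgaauuuu
AT5G59850 (S15a, chr5:24112262-24112291, minus strand): caauuucuguuuucuacaacaaaAAACAcu
Their midpoints were 119 and 17 nt after the stop codon in SA, 140 and 112 nt in S19, and 81 and 222 nt in S15a. In S23 the single reproducible site of AT3G09680 lay in its coding sequence, 235 nt before the end of the stop codon, at a sequence that also occurs at another place in the genome.

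Conversion events of the 40S transcripts were concentrated in the first 200 nt of the 3' UTR. Of the 375 reproducible sites, 170 (45.3%, 95% Wilson interval 40.4 to 50.4) lay in the 3' UTR, 171 in the coding sequence (CDS), 33 in the 5' UTR and 1 outside the gene model. The 3' UTR sites held 90.5% of the events, the CDS sites 7.90% and the 5' UTR sites 1.53%. The median 3' UTR site had 59 mean events, the median CDS site 6.5 and the median 5' UTR site 6. Of 61 sites with 100 or more mean events, spread over 40 members, 60 lay in the 3' UTR. The strongest site was there in 56 of the 58 members with a reproducible site. Neither count was made for other gene sets. In all nuclear protein-coding genes the 3' UTR sites also held most of the events, 85.0%. These counts are thus not shown to set the 40S genes apart. Sites of one gene are not replicates and intervals cover counting error only.

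By gene, 57 of the 60 had a reproducible 3' UTR site, against 29.6% of all genes and 83.1% of the top 10%. A CDS site was found in 52, against 7.61% and 49%, and a 5' UTR site in 27, against 2.23% and 17.5%. Per kb of sequence the members with a site had 3.57 sites in the 5' UTR, 5.54 in the CDS and 9.37 in the 3' UTR, where the top 10% had 1.14, 1.77 and 7.37. The members thus had more listed CDS sites for their length, 117 of the 171 with under 10 mean events, at the higher input given above. Sites of all genes were 71.6% in the 3' UTR, with 85.0% of events, and those of the top 10% were 55.8%, with 84.8% of events, so the 40S genes stood apart by number of sites more than by events.

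**Figure D3:**
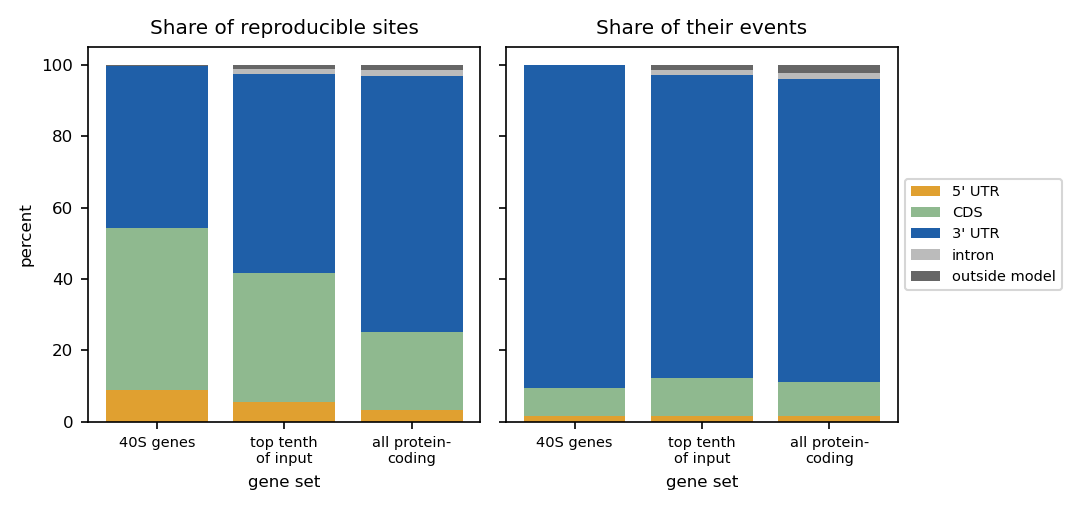
Percent of reproducible sites (left) and of their events (right) in each mRNA region, as stacked bars for the 40S genes, the top 10% of input and all nuclear protein-coding genes. Coding and 5' UTR sites together outnumber 3' UTR sites in the 40S genes at left, but at right the 3' UTR takes 90.5%, 84.8% and 85.0% of the events.

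Within the 3' UTR the median midpoint was 109 nt after the stop codon, close to 113 nt in the top 10% and 116 nt in all genes, and 160 of the 170 sites lay within 200 nt of it. The farthest was 275 nt from the stop. The members' annotated 3' UTRs had a median length of 303.5 nt, and the median site midpoint lay 191 nt before the annotated mRNA end. The 3' ends used in these seedlings were not measured. The strongest site of a member held a median of 60.9% of its events in reproducible sites, against 81.0% in all genes. The strongest sites of the 10 most recovered members ranged from the 904 mean events of AT1G15930, 169 nt after the stop, to the 285 of AT5G20290, 115 nt after it. AT3G11940 had 894.5 mean events at 101 nt and AT5G41520 had 760 at 73 nt.

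Few members had much of their signal in sites with midpoints outside the 3' UTR. By this midpoint label, those below 70% of events in the 3' UTR were AT3G02560 (S7) with 36.6%, AT3G45030 (S20) with 58.6% and AT3G09680 (S23) with 0%. The strongest sites labelled CDS by midpoint ran across the stop codon into the 3' UTR, so their events cannot be placed on either side. AT3G45030 had 137 and 107 events in a site of 154 nt, centred 46 nt before the end of the stop codon. AT3G02560 had 97 and 100 in a site of 168 nt centred 22 nt before. AT1G07770 had 57 and 66 in a site of 86 nt centred 29 nt before. AT2G21580 is the single listed gene of S25, a protein known for initiation at internal entry sites in other species. AT2G21580 had 49 and 65 events in such a site of 142 nt, centred 5 nt before. The strongest 5' UTR site had 41 and 42 events, in AT1G15930.

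**Figure D4:**
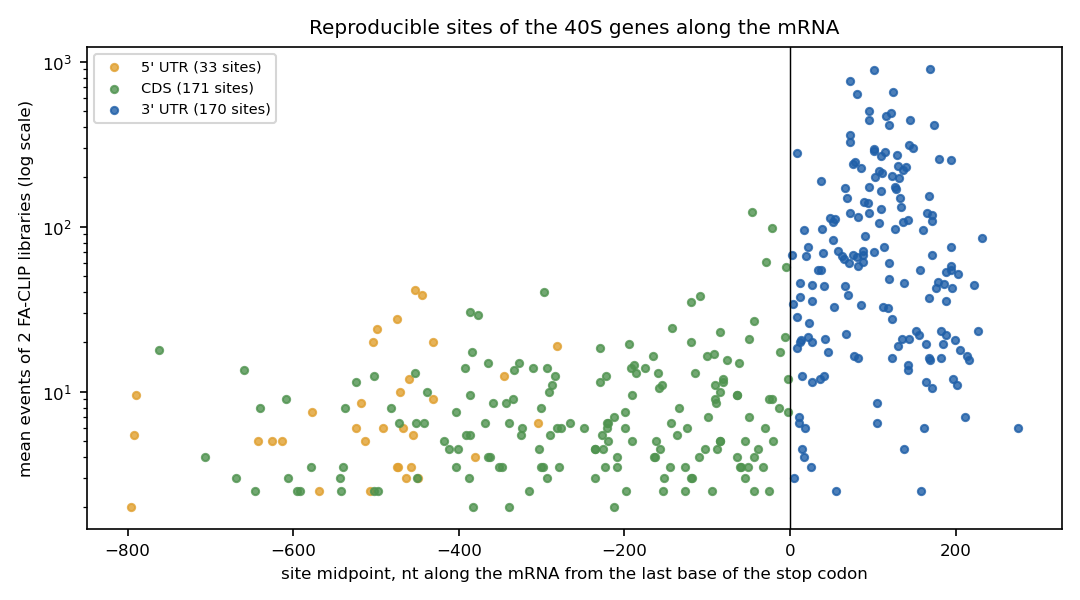
Mean events (vertical, log scale) of the members' reproducible sites in the 5' UTR, CDS and 3' UTR against the distance of the site midpoint along the mRNA from the end of the stop codon (horizontal, nt). Sites of 100 or more mean events lie between 0 and 200 nt after the stop, with 1 exception just before it, while 117 of the 171 CDS sites have under 10.

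The 3' UTR sites of the 40S genes held few of the UGUA motifs that were frequent in other sites. UGUAA was found in 4 of the 170 sites (2.35%), against 15.4% in the top 10% of input and 16.9% in all genes. UGUAY, which is UGUA followed by C or U, was in 5.29%, against 19.8% and 22.8%. URUAY, which includes UGUAY, was in 13.5%, against 31.1% and 34.7%. Over all 375 sites the shares were 1.87% for UGUAA (95% Wilson interval 0.907 to 3.80), 5.87% for UGUAY (3.91 to 8.72) and 9.87% for URUAY (7.24 to 13.3). The search was on the mRNA strand alone, and a match is a description, not a site of binding.

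The UTRs themselves held fewer such letters. UGUAA occurred 0.882 times per kb in the whole 3' UTRs of members with a reproducible site, against 2.67 in the top 10% and 2.78 in all genes with such a site, and UGUAY 1.71 times against 3.76 and 3.92. Within the 3' UTR sites UGUAA occurred 0.441 times per kb in members, against 3.004 and 3.41. The density in sites was thus below that of the whole 3' UTR in the members and above it in the other sets, on 4 matches in sites and 16 in UTRs of the members. The 3' UTR matches in sites were in AT5G07090 (S4), AT3G52580 (S14) and both AT3G48930 and AT5G23740 (S11), at sites of 54.5, 19.5, 18.5 and 6.5 mean events.

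The other motifs differed less, by ratio, from the other gene sets, some higher and some lower. DRACH was in 54.7% of the members' 3' UTR sites, against 55.2% in the top 10% and 59.3% in all genes, and RRACH, the part of DRACH that starts with A or G, in 47.6%, against 44.3% and 46.5%. GGAU was in 18.2%, against 14.4% in both sets. Runs of 5 U, UUUUU, were in 40.6%, against 28.5% and 28.2%. The base content went the same way: the members' 3' UTR sites were 43.4% U, those of all genes 41.0%, and their whole 3' UTRs 40.7% against 37.0%.

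Few whole sites had an exact copy elsewhere in the genome, but shorter shared stretches were more common. The sequence of 12 of the 375 reproducible sites, in 9 members, occurs at another place in the genome, and 57 members kept a reproducible site without them. By 25-nt stretches of the mRNA, a median of 2.05% occurs elsewhere, with 20 members above 5% and 2 above 50%, the S17 genes AT2G04390 and AT2G05220. Their FA-CLIP events were 144 and 194, and 121 and 282, and their split between these genes is uncertain. Next came AT1G58380 (S2) with 44.0%, AT2G09990 and AT5G18380 (both S16) with 28.4% and 26.5%, and AT5G04800 (S17) with 25.6%. The events, input and scores of these genes carry the same limit. A search with whole sites cannot show how reads shorter than a site were divided.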

How the data were processed

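The deposited site lists give counts of conversion events per called site, at least 2 a site and not scaled, per the file headers. The deposited input tables give 1 value per gene, taken as FPKM from the header and the values. Per the submitters' processing notes, cutadapt, Bowtie and TAIR10 were used; the site caller is not given in the sources used here. Input and precipitates were made with different library kits.

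Sites listed for several transcripts were counted once. Reproducible sites join FA-CLIP 1 and 2 sites overlapping by 1 nt on 1 strand. Regions come from site midpoints on the RefSeq TAIR10.1 model with the longest CDS; file coordinates matched that assembly. Motifs were searched in the site sequence. Python 3.11.15 was used with scipy 1.17.1, numpy 2.4.6 and, for plots, matplotlib 3.10.9, after tests on simulated data.

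Named members are the 10 with most events, the 6 highest and 6 lowest scores, those with most mock events, those without a site, and the extreme copies of the 8 widest families; others named were chosen after their values were seen. The members and lists were chosen with earlier results of these data known.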

Additional observations from a re-analysis of the deposited data

How the results depend on the processing

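Of 58 alternative values, 42 stayed within the replicate spread, or within 1.5 times for counts, and none reversed. The count of members with a reproducible site ran from 55 to 59, and that of members above both mock libraries from 57 to 59. Members listed in the mock fell from 21 to 5 with at least 5 events a site. With all listed events as the total, the members' share was 2.74% (FA-CLIP) and 0.0130% (mock); without the 2 genes with the most mock events the mock share was 0.369%. The input share was 1.30% by FPKM times kb, and 1.91% without those 2 genes, a setting chosen after seeing the data, against 0.918% by FPKM. The median score ran from 1.18 to 1.49 when 1 choice or library was changed. Its distance from the top 10% ran from 0.918, without mRNA length in the score, to 1.51, with genes of 10 FPKM or more. From the libraries numbered 1 and 2 taken apart, the medians were 1.11 and 1.59 and the distances 1.42 and 1.57. The share of sites in the 3' UTR was 90.5% weighted by events, 46.8% for sites with 1 place in the genome and 43.0% to 43.6% with 1 FA-CLIP library left out. Extending sites by 25 nt gave 11.5% for UGUAY, 22.1% for URUAY, 82.1% for DRACH, 74.1% for RRACH, 33.9% for GGAU and 36.8% for UUUUU. Longer sequence holds more matches. UGUAA rose to 3.73%, against 24.3% in all genes, over sites of all regions. All genes have more of their sites in the 3' UTR. In extended 3' UTR sites alone UGUAA was in 5.29%, against 30.1% in all genes. No paired analysis was possible because no result comes from a test across libraries and nothing in the labels pairs libraries of the same number. A count of 2 events a site limits what can be listed, and the depth of the input is unknown.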
